A study of Mus musculus with 8 samples.

Results

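Introns held 27613 regions of chromatin that were open in every one of 8 mouse cortex libraries, out of 197916 merged regions of the series. The libraries came from ATAC-seq, in which the Tn5 transposase inserts sequencing adapters into open chromatin, so that reads pile up into peaks at accessible sites. The regions were selected on the deposited peak lists: peaks of all libraries on 21 chromosomes were merged where they shared at least 1 bp, and a region was kept if it held a peak in all 8 libraries, was narrower than 2000 bp, and had its midpoint more than 3 kb from any annotated transcription start site (TSS) and inside an intron, that is, inside a transcript and outside every exon. They are called members below. Presence in all libraries is therefore how they were chosen and is no result. Of all 71712 regions with a peak in every library, 20354 were promoter regions (midpoint within 3 kb of a TSS), 21695 were distal intergenic and 1954 were exonic, counted under the same width limit.

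The study asked how narrowing of both carotid arteries changes chromatin in the cortex. All mice were male C57BL/6, 14 weeks old at sampling per the study's quality table. In 4 BCAS mice (bilateral common carotid artery stenosis), microcoils of 0.16 mm on the right and 0.18 mm on the left were wound around the common carotid arteries at 11 weeks of age, and in 4 sham mice the arteries were exposed without a coil. The labels give the tissue as right cerebral cortex, whereas the study's quality table gives cortex from the whole brain. The study's methods give 8 mice for ATAC-seq, as many as libraries, but the labels tie no library to an animal, so p-values measure the spread between these libraries. The samples were bulk nuclei, and a change in the number of cells of a type cannot be told apart from a change in openness per cell.

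Introns are spliced out of the transcript, yet their DNA carries many of the enhancers of mammalian genomes, to which transcription factors bind and from which they act on the host gene or on other genes. Brain genes with very long introns, such as those for synaptic adhesion molecules, hold many such elements. Motifs of AP-1 (the FOS and JUN dimers) and of neuronal factors such as NEUROD1 are common in cortical enhancers, and PU.1, encoded by Spi1, is a lineage factor of microglia and other myeloid cells.

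Sequences of 9 members are shown because they carry the contrasts described below, each as 201 bases of the forward strand of GRCm38 (mm10) centred on the median summit. Capitals mark matches, on either strand, to any of 20 consensus motifs. The first 3 are the members of greatest mean height:

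Chl1 member, chr6:103649104-103649304: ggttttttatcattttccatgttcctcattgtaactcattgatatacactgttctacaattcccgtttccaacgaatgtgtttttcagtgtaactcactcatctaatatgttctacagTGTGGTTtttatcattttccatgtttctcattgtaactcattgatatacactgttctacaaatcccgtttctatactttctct
Itga1 member, chr13:114964351-114964551: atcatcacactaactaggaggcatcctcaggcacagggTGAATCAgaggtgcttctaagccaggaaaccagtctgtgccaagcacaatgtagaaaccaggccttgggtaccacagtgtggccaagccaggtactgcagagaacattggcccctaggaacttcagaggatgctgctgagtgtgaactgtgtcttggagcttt
Gphn member, chr12:78350869-78351069: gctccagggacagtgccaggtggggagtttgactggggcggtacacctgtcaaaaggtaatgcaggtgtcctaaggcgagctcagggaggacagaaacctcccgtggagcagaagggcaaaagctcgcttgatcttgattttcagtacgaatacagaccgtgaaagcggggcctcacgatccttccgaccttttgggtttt

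The next 3 had the largest increase in BCAS among members whose groups did not overlap:

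Gm8189 member, chr19:8518354-8518554: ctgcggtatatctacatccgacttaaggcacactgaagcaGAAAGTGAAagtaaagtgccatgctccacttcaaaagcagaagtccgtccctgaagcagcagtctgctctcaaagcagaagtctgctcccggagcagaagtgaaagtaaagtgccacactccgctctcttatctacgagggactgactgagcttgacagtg
Zfhx3 member, chr8:108595197-108595397: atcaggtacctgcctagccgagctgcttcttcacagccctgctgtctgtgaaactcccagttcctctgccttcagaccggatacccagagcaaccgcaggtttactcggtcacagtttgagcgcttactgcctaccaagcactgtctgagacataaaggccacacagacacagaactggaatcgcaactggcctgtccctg
Arhgap24 member, chr5:102777937-102778137: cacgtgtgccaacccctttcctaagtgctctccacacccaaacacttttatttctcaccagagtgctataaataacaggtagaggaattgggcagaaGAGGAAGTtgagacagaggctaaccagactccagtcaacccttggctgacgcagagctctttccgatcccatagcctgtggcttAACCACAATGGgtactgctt

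The last 3 had the largest decrease in BCAS under the same condition:

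Fam219a member, chr4:41557147-41557347: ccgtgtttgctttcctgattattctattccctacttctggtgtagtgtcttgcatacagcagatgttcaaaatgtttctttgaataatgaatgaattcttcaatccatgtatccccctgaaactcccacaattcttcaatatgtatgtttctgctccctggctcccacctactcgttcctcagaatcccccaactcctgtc
Lypd6b member, chr2:49934423-49934623: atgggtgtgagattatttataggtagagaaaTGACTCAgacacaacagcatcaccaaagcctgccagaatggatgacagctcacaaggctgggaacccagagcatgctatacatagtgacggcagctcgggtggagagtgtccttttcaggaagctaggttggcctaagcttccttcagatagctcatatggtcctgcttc
Nrg3 member, chr14:38835148-38835348: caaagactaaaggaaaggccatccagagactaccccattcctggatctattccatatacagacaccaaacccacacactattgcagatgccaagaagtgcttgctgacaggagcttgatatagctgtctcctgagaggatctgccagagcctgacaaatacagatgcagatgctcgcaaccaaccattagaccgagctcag

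The Arhgap24 sequence held a PU.1 match (GAGGAAGT), a RUNX match (TGTGGTT, here on the reverse strand) and an overlapping SOX match (ACAATGG). The Itga1 and Lypd6b sequences each held an AP-1 match (TGANTCA). The Gm8189 sequence held an IRF match (GAAAGNGAA), and the Chl1 sequence held a RUNX match. No listed motif was found in the Gphn, Zfhx3, Fam219a and Nrg3 windows.

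The merged width of members, which the rule limits, had a median of 556 bp (5th to 95th percentile 341 to 1003 bp). It was 563 bp in distal and 812 bp in promoter regions called in all libraries. The GC content of members had a median of 47.3% (38.5% to 56.6%), and 91.6% of them (25287) held a single peak in every library. The range of the summits had a median of 80 bp in members, 78 bp in those distal regions and 61 bp in those promoter regions. The summits of the 8 libraries lay within 100 bp of each other in 63.2% of members (17450), and in 24.6% (6786) within 50 bp. Summits were spread over more than 200 bp in 12.6% (3482), and 7.79% (2152) reached into an exon although their midpoint was intronic. Repeat-masked sequence was scarce at the summits. At least 50% of the 201 bases were soft-masked in 1.503% of members (415; 95% Wilson interval 1.37% to 1.65%), in 4.70% of intronic regions called in a single library (4.40% to 5.02%), and in 23.1% of positions placed every 1000 bp along intronic DNA more than 3 kb from a TSS. Reads from repeats can be lost in mapping, and its part in this difference was not tested. The 415 members included those in Nrg3 and Eaf2 described below. Intervals here and below cover counting error only.

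Intronic regions called in any library numbered 87874 under the width limit. Called in all 8 libraries were 31.4% of them (95% Wilson interval 31.1% to 31.7%), 33.1% of distal intergenic regions (32.8% to 33.5%) and 53.5% of promoter regions (53.0% to 54.0%). At the other end, 19.9% of intronic regions (17527) were called in a single library. The share called in all libraries barely varied with distance from the nearest TSS, lying between 30.1% at 100 to 200 kb and 32.1% at 20 to 50 kb. The plot of regions by number of libraries shows the same rise at both ends for each class.

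**Figure D1:**
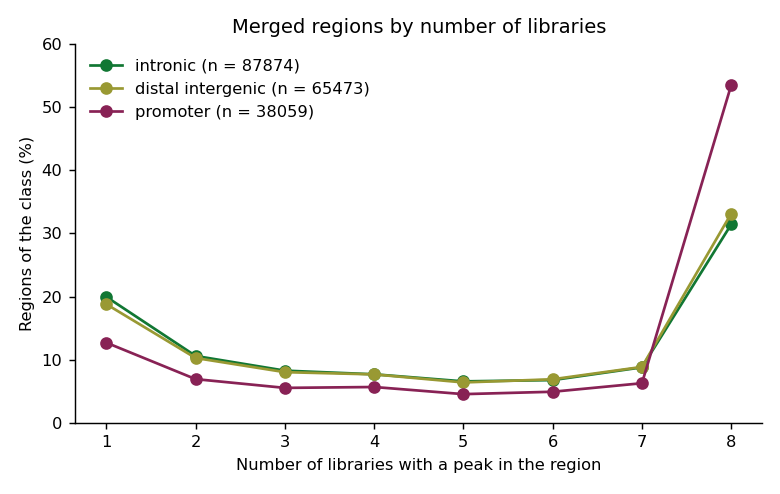
Share of merged regions (%) of 3 classes against the number of libraries, from 1 to 8, that held a peak in the region, with width under 2000 bp. Intronic and distal lines run close together and end at 31.4% and 33.1% for 8 libraries, and the promoter line ends at 53.5%.

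At the edges of the rule, 7717 intronic regions were called in 7 libraries, and the missing library was BCAS 3 in 2138 of them, sham 1 in 1951 and BCAS 1 in 39. The widest members lay in Fyn (1960 bp), Sox2ot (1930 bp) and Nedd4l (1912 bp), and 3 intronic regions with a peak in every library were left out for width, at 2092, 2542 and 2550 bp. The members nearest a TSS lay 3001 bp away, in Clpb and Endou, and regions in introns of Mtus2 and Ttc17 were left out at 2999 and 2997 bp. Peak height, the deposited fold enrichment at the summit, rose with the number of libraries, from a median of 4.01 for intronic regions called in 1 library to 5.36 for 7 libraries and 7.31 for members.

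The host of a member was taken as the shortest protein-coding gene with an intron at its midpoint, or otherwise the shortest other gene. A protein-coding host was found for 91.1% of members (25148), against 86.5% of the positions placed along intronic DNA. These members lay in 6664 genes, of which 2705 held a single member, and the 581 genes with at least 10 members held 38.7% of them. First introns held 26.5% of members (95% Wilson interval 26.0% to 27.1%) and 25.3% of intronic positions. Members numbered 29.4 per Mb of intronic DNA over the genome. Chromosome X was sparser, at 9.25 per Mb (380 members). The share of its intronic regions called in all libraries was also the lowest of any chromosome, at 26.4%. Chromosome 17 came next at 28.4%, and the share over all chromosomes was 31.4%. The mice were male and carry a single X per cell, and the part of copy number in the lower density was not tested.

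The protein-coding genes with most members were mostly large neuronal genes. Tenm2, a teneurin of synaptic adhesion, held 52, Magi2, a synaptic scaffold, held 50, and Lsamp, an IgLON adhesion molecule, held 49. Csmd1 and the presynaptic adhesion gene Nrxn3 held 45 each, Anks1b, Astn2 and Ptprn2 held 44 each, and Nav2 held 41. The gene model Gm20388 held 91, but it spans 4435 kb and has 71 other protein-coding genes inside it. The order differed per 100 kb of intron more than 3 kb from a TSS, where Nav2 held 6.88, Ptprn2 5.81, Tenm2 4.37 and Lsamp 2.295, against 2.94 over all intronic DNA.

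Genes of the 16 lists held members at densities from 1.35 per 100 kb of intron (housekeeping) and 1.36 (inhibitory neurons) to 5.32 (disease-associated microglia), beside 2.94 over all intronic DNA. Voltage-gated ion channel genes held 386 members in 30 of 32 genes (3.84 per 100 kb), synaptic adhesion genes 768 in 36 of 37 (2.63 per 100 kb), and genes for glutamate and GABA receptors 314 in all 30 (2.91 per 100 kb). Among cell type markers, excitatory neuron genes held 115 members in 15 of 22 genes, microglial genes 101 in 19 of 36, astrocyte genes 79 in 10 of 21, inhibitory neuron genes 43 in 10 of 23, endothelial genes 36 in 14 of 22, oligodendrocyte genes 28 in 8 of 21 and mural cell genes 24 in 7 of 19. Oligodendrocyte precursor genes held 148 in 11 of 18. Disease-associated microglial genes held 19 in 4 of 23, interferon-stimulated genes 9 in 4 of 27, activity-regulated genes 7 in 4 of 28, housekeeping genes 3 in 2 of 24, and genes of hypoxia and oxidative stress 39 in 13 of 24. Each marker list of neurons, glia and vessel cells thus had some of its genes among the hosts, and others that held no member.

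Members were lower than distal and promoter regions, and higher than exonic regions, in every library. Heights were ranked among all 71712 regions with a peak in every library, and the median percentile of members was 43.3, 42.7, 42.5 and 42.1 in the sham libraries 1 to 4 and 42.1, 41.6, 42.3 and 41.8 in the BCAS libraries 1 to 4. Distal regions stood between 48.9 and 52.7, promoter regions between 61.4 and 66.9 and exonic regions between 37.5 and 41.1. Members were below distal regions by 6.58 to 10.3 percentile points and below promoter regions by 18.9 to 25.1 points over the 8 libraries, so the order was the same in each.

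**Figure D2:**
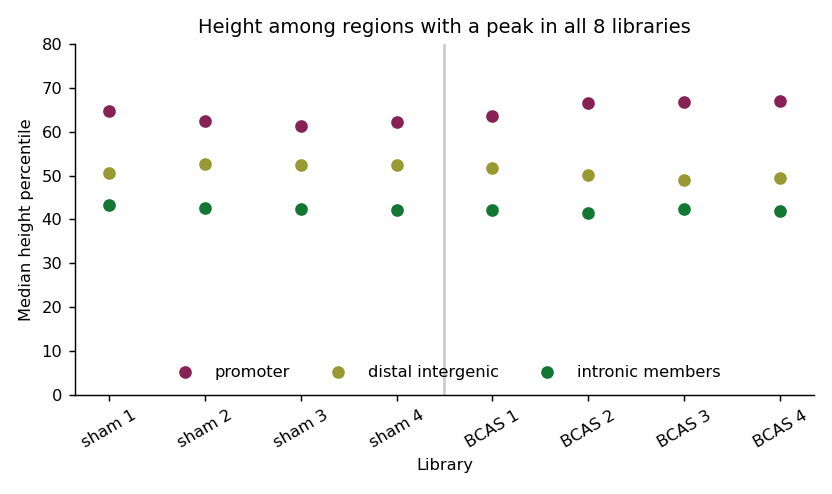
Median height percentile of intronic members, distal intergenic regions and promoter regions in each of the 8 libraries, among all regions with a peak in every library. Members sit between 41.6 and 43.3 in each library, below the distal points (48.9 to 52.7) and the promoter points (61.4 to 66.9). Exonic regions, which stood below members, are not plotted.

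The libraries held 107391 to 160720 peaks each, of which 17.7% to 26.3% fell in members, and read depth behind single peaks is not given in the sources used here. Normalized heights of members correlated at 0.777 to 0.849 between sham libraries, 0.757 to 0.828 between BCAS libraries and 0.649 to 0.813 between the groups (Pearson's r across regions of 2 libraries, which are not independent replicates). BCAS 3 stood furthest from sham, at 0.649 to 0.687.

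Between the groups, the median percentile of members was 42.7 ± 0.502 in sham and 41.9 ± 0.319 in BCAS (mean ± SD, n = 4 each), a difference of -0.71 points, and the groups overlapped. The promoter to member gap was 18.9 to 21.5 points in sham and 21.5 to 25.1 points in BCAS, where the groups touched without overlapping. The median width covered by peaks in a member was 409.5 ± 27.8 bp in sham and 408 ± 27.8 bp in BCAS (n = 4 each), and the groups overlapped there too. No p-value is given for these medians, since they summarise the members as a set. A read GC class, from the study's quality table, split the libraries into a higher class (sham 1 to 3 and BCAS 1) and a lower one (sham 4 and BCAS 2 to 4). Within the higher class the percentile differed by -0.78 and the width by 30 bp, and within the lower class by -0.22 points and 13 bp. These differences rest on BCAS 1 as the only BCAS library of the higher class and on sham 4 as the only sham library of the lower class.

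The members of greatest height were not called in either direction. Heights were quantile normalised on the log2 scale across libraries and are given as fold enrichment. The member in intron 3 of Chl1 (chr6:103648952-103649397), a neural adhesion molecule, had a height of 26.8, 29.2, 26.8 and 26.8 in the sham libraries 1 to 4 and 28.5, 25.7, 28.5 and 27.7 in the BCAS libraries 1 to 4. All 8 values lay above those of every other named member, and the groups overlapped (log2 change 0.01, SE 0.04, adjusted p = 0.944, limma). In its printed sequence 31.3% of bases were soft-masked as repeat, and a stretch near the start recurs further along. The part of repeats in its height was not tested. Its 51 central bases occurred at 2 places in the assembled chromosomes of GRCm38. The same held for the member in intron 2 of Gphn, the gene for the inhibitory synapse scaffold gephyrin. That member (chr12:78350777-78351271) had 22.6, 22.4, 20.9 and 23.3 in sham and 22.7, 23.2, 22.7 and 21.3 in BCAS, and the groups again overlapped. A member in the last intron of Itga1 (chr13:114964212-114964645), an integrin subunit that binds collagen, stood between 21.8 and 24.2 in sham and between 21.2 and 23.3 in BCAS. The other 7 of the 10 highest members lay in Cdk8, Gm26561, 4930597G03Rik, Gm12609, Macrod2, Eaf2 and Cfap69, with means of 20.1 to 21.6. Around the summit of the Eaf2 member 78.6% of bases were soft-masked as repeat. Of the 10, limma called none (smallest adjusted p = 0.127, in Gm26561).

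Against the spread between libraries, limma called 418 members higher and 155 lower in BCAS (Benjamini-Hochberg adjusted p under 0.05 over all 71712 regions). That is 1.51% of members higher, beside a background of 1.44% of all regions tested, and 0.561% lower, beside 0.577%. The shares of members called were close to those of all regions tested, of which members are a part. Promoter regions had 1.26% called higher and 0.255% lower, and distal regions 1.51% and 0.931%. The median log2 change of called members was 0.73 for those that rose and -0.61 for those that fell, and over all members it was -0.02, beside 0.00 over all regions tested. Groups did not overlap in 1268 members that stood higher in BCAS (4.59%, beside 4.8% of all regions) and in 1154 that stood lower (4.18%, beside 3.72%). Among called members, 403 of the 418 and 150 of the 155 had groups that did not overlap.

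**Figure D3:**
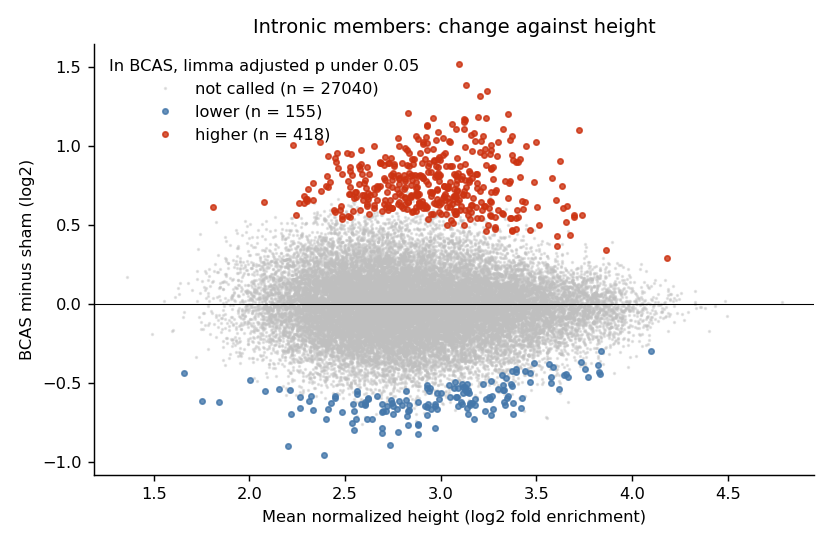
Difference BCAS minus sham (log2) of each of the 27613 members against its mean normalized height (log2 fold enrichment), with 418 members called higher in red and 155 called lower in blue. The largest increase reaches 1.52 (Gm8189), and the median over all members is -0.02.

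The counts depended on the libraries in the model. With read GC class in the model limma called 104 higher and 9 lower, with a loess correction on region GC content 341 and 92, and with 1 library left out 255 to 509 and 37 to 192. The count of higher members fell to 255 without sham 1, 264 without BCAS 3 and 255 without BCAS 4, and that of lower members to 59, 63 and 37 without sham 1, 2 and 3 and to 90, 60 and 82 without BCAS 2, 3 and 4. Without each library in turn, 202 of the 418 and 16 of the 155 were called every time. Sham 4 was the highest sham library in 61.2% of the 418 members and in 27.3% of members not called, and BCAS 1 was the lowest BCAS library in 38.0% and 24.9%. Called members also differed in composition, with a median GC content of 49.9% for those higher, 46.1% for those lower and 47.3% for the rest. The part of GC content in these calls was not tested beyond these fits.

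The largest increases ran from 2.24-fold to 2.87-fold. The member in intron 4 of the pseudogene Gm8189 (chr19:8518198-8518676) had heights of 5.28, 4.26, 3.82 and 7.51 in the sham libraries 1 to 4 and 13.8, 15.2, 14.1 and 14.8 in the BCAS libraries 1 to 4. Every BCAS library exceeded every sham library, and the log2 change was 1.52 (SE 0.17, adjusted p = 0.000163). In intron 4 of Zfhx3 (chr8:108595084-108595499), a zinc finger and homeobox transcription factor, the values were 4.42, 4.54, 5.26 and 8.17 in sham and 12.7, 15.2, 15.97 and 12.99 in BCAS (log2 change 1.38, SE 0.17, adjusted p = 0.00028). In intron 3 of Arhgap24 (chr5:102777839-102778453), a GTPase-activating protein, they were 5.71, 3.69, 5.57 and 10.4 in sham and 13.7, 15.3, 16.2 and 15.2 in BCAS (log2 change 1.35, SE 0.21, adjusted p = 0.00169). Sham 4 was again the highest sham library in both genes, as it was in 9 of the 10 largest increases.

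Host genes of the other 7 increases included immune and signalling genes. Intron 4 of Cd300a (chr11:114898018-114898447), an inhibitory receptor of myeloid cells, held a member that rose from 6.09 to 13.8 (group means, log2 change 1.18, SE 0.18, adjusted p = 0.00165). Intron 8 of Itgb2 (chr10:77550867-77551369), the beta-2 chain of leukocyte integrins, held one that rose from 6.26 to 14.1 (1.17, SE 0.20, adjusted p = 0.0036), and its call was lost with read GC class in the model (adjusted p = 0.0688). The others were in intron 1 of Plcl1, a phospholipase C-like protein (5.86 to 14.6), intron 1 of the antisense gene 9330179D12Rik (4.68 to 10.8), intron 1 of Cops4, a COP9 signalosome subunit (6.73 to 15.5), intron 5 of Dusp27 (5.18 to 11.7) and intron 1 of Map3k4, a kinase of stress signalling (5.80 to 13.02). Among the 10 increases, 9 stayed called in all 13 alternative fits run on them and the Itgb2 member in 12.

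**Figure D4:**
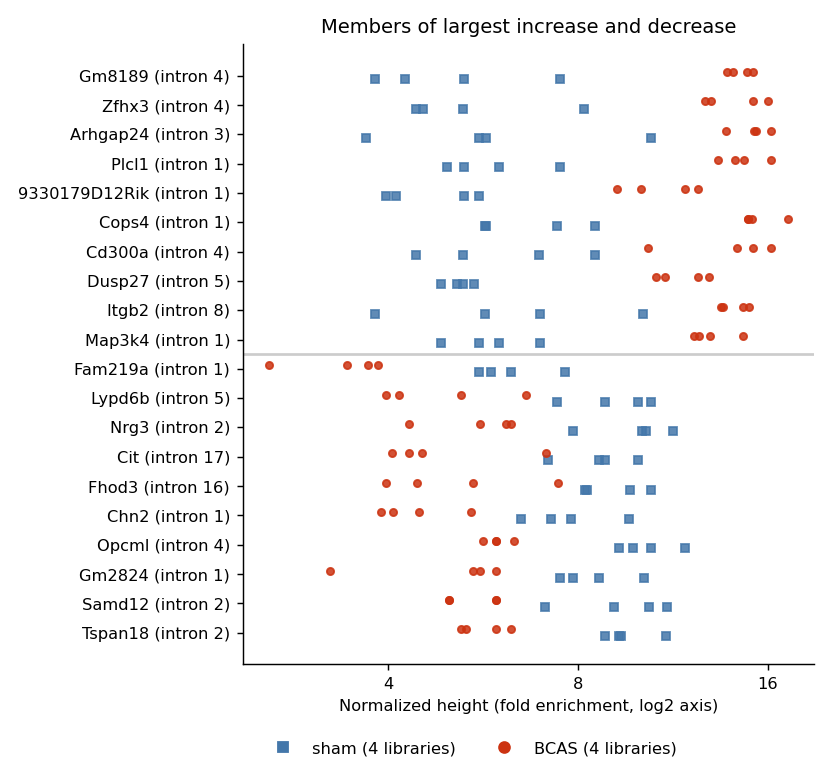
Normalized height (fold enrichment, log2 axis) of the 10 members with the largest increase (upper rows) and the 10 with the largest decrease (lower rows), 1 point per library, squares for 4 sham and circles for 4 BCAS libraries. The groups do not overlap in any row, which is how the rows were chosen, and sham points of the increases spread more than their BCAS points in all rows but Dusp27, with sham 4 the highest sham point in 9 of 10.

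Decreases were smaller and less stable. The member in intron 1 of Fam219a (chr4:41556706-41557454) stood at 5.82, 6.26, 7.63 and 5.58 in the sham libraries 1 to 4 and at 3.85, 3.45, 2.59 and 3.71 in the BCAS libraries 1 to 4, a log2 change of -0.90 (SE 0.15, adjusted p = 0.00396). In intron 5 of Lypd6b (chr2:49934328-49934692), a Ly6 family protein, the values were 7.41, 8.83, 9.96 and 10.4 in sham and 6.62, 4.17, 3.97 and 5.22 in BCAS (log2 change -0.89, SE 0.17, adjusted p = 0.00954). In intron 2 of Nrg3 (chr14:38834948-38835419), a neuregulin ligand of the ErbB4 receptor, they were 10.3, 10.1, 11.3 and 7.84 in sham and 6.16, 6.26, 4.32 and 5.59 in BCAS (log2 change -0.83, SE 0.16, adjusted p = 0.00853). All BCAS libraries lay below all sham libraries in these 3 members. Around the summit of the Nrg3 member 89.6% of bases were soft-masked as repeat. The part of repeats in its decrease was not tested. BCAS 1 was the highest BCAS library in 5 of the 10 largest decreases, among them that of Lypd6b.

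The other 7 decreases lay in Cit (citron kinase), Fhod3 (a formin), Chn2 (a Rac GTPase-activating protein), Opcml (an IgLON adhesion molecule), Gm2824, Samd12 and Tspan18 (a tetraspanin), with log2 changes from -0.82 to -0.76. The Opcml member (chr9:28845936-28846585) fell from 10.3 to 5.96 (group means) and stayed called in all 13 alternative fits, as none of the other 9 did. With read GC class in the model those 9 lost their call, and the members in Cit, Fhod3, Gm2824 and Samd12 lost it also when single libraries were left out.

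Motifs within 100 bp of the summit differed between members that rose and those that fell. PU.1 matches (GAGGAAGT, either strand) were found in 14.1% of the 418 members that rose (59 members; 95% Wilson interval 11.1% to 17.8%), in 3.23% of the 155 that fell (5; 1.39% to 7.33%) and in 2.06% of all members (570; 1.903% to 2.24%), beside 2.89% of all merged regions. AP-1 matches (TGANTCA) went the other way, with 12.4% of those that rose (52; 9.61% to 15.95%), 35.5% of those that fell (55; 28.4% to 43.3%) and 18.5% of all members (5095; 18% to 18.9%), beside 15.1% of all merged regions. CTCF, the insulator factor, had matches in 3.32% of all members but in 3 of those that rose (0.718%) and 0 of those that fell, which allows a share of up to 1.94% (3 counts of 155; the 95% Wilson upper limit is 2.42%). RUNX matches (TGTGGTT) were in 7.18% of members that rose and 4.43% of all, and NEUROD1 matches (CAGATGG) in 7.66% and 11.8%. These are counts of letters and not of bound factors.

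**Figure D5:**
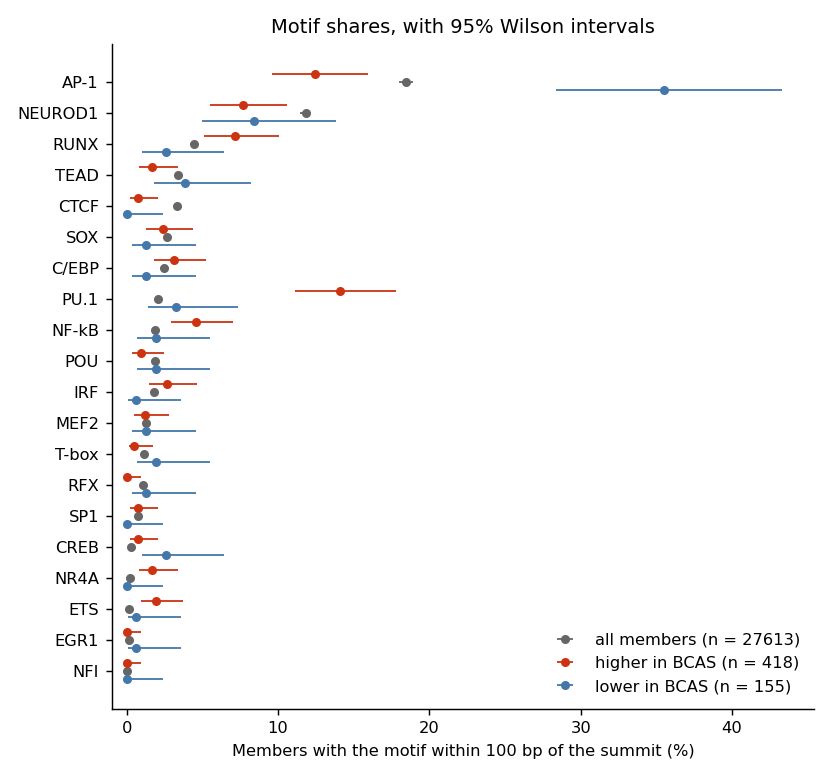
Share of members (%) with each of 20 motifs within 100 bp of the summit, for all members (grey), the 418 higher in BCAS (red) and the 155 lower in BCAS (blue), with 95% Wilson intervals as bars. PU.1 stands at 14.1% among those higher against 2.06% of all members, and AP-1 at 35.5% among those lower against 18.5% of all members.

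The motif shares were recomputed in the alternative fits. With read GC class in the model, PU.1 matches were in 10 of 104 members called higher (9.62%) and AP-1 matches in 4 of 9 called lower. With 1 library left out, the PU.1 share of members called higher lay between 14.9% and 16.4%, and the AP-1 share of members called lower between 32.4% and 42.9%.

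The contrast of PU.1 and AP-1 could be read without any call, but from the same heights of the same libraries, so it gives no separate support. Called members were kept in these medians. The 570 members with a PU.1 match had a median height percentile of 39.6, 37.0, 39.1 and 42.4 in the sham libraries 1 to 4 and of 47.4, 48.9, 46.5 and 49.6 in the BCAS libraries 1 to 4. Every BCAS library was above every sham library, with a difference of 8.58 points between the group means, of 8.84 within the higher read GC class and of 5.96 within the lower one. The 5095 members with an AP-1 match stood at 50.4, 50.3, 50.8 and 50.4 in sham and at 46.6, 44.9, 42.4 and 45.3 in BCAS, so that here every BCAS library was below every sham library. The AP-1 difference was -5.66 points over all libraries, -3.91 within the higher class and -6.15 within the lower one. BCAS 1 was the only BCAS library of the higher class, and sham 4 the only sham library of the lower class. CTCF members (916) went from 43.2 ± 1.02 to 49.1 ± 3.14 (mean ± SD, n = 4), with every BCAS library above every sham library. This differs from the calls, where CTCF matches were in 0.718% of members that rose, 0 of those that fell and 3.32% of all members. RUNX members (1224) went from 41.2 ± 0.936 to 42.0 ± 0.822 with overlapping groups. A description is given here and no test, since the motifs were looked at with earlier results of these data known.

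Motif shares also varied with the number of libraries and with height. From intronic regions called in 1 library to members, AP-1 matches went from 13.6% to 18.5%, NEUROD1 from 7.65% to 11.8%, CTCF from 1.15% to 3.32% and RFX (GTTGCCATG) from 0.542% to 1.09%, whereas PU.1 had no steady course, with 2.69% in 1 library, 4.85% in 4 libraries, 2.79% in 7 and 2.06% in members. Members resembled distal regions called in all libraries (AP-1 18.7%, NEUROD1 11.7%, CTCF 4.45%) more than promoter regions (AP-1 7.05%, NEUROD1 4.83%, CTCF 2.05%). Among members ranked by mean height, AP-1 matches were in 13.7% of the lowest 10% and in 25.6% of the highest 10%, while NEUROD1 matches were in 11.4% and 12.9%. At least 1 of the 20 motifs was found in 47.4% of members (13078).

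Introns of genes that mark microglia held 101 members. Of these, 5 were called higher (4.95%, beside 1.44% of all regions tested) and 0 lower (beside 0.577%, under which fewer than 1 of 101 would fall), with a median log2 change of 0.02 over the 101. In intron 8 of Mertk (chr2:128771003-128771667), a receptor for the clearance of dying cells, heights were 4.42, 6.32, 6.48 and 8.17 in the sham libraries 1 to 4 and 13.03, 13.8, 12.7 and 12.9 in the BCAS libraries 1 to 4 (log2 change 1.08, SE 0.15, adjusted p = 0.000834). The groups stood far apart there, and the other 4 were in Itgb2, described above, Apbb1ip, an adaptor of integrin activation (log2 change 1.03), Dock2, a leukocyte activator of Rac, in a stretch that is also intronic to Fam196b (0.88), and Vav1, a guanine nucleotide exchange factor (0.69, groups overlapping). The Dock2 member held a PU.1 match. The highest microglial member, in intron 2 of Ptprc (chr1:138136256-138136821), the leukocyte antigen CD45, stood between 15.5 and 17.99 in sham and between 14.7 and 16.6 in BCAS (adjusted p = 0.867). Of 19 members in genes of disease-associated microglia, 0 were called in either direction.

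Introns of neuronal genes held calls in both directions, beside backgrounds of 1.44% higher and 0.577% lower over all regions tested. In genes of excitatory neurons 1 of 115 members rose (0.87%), in Tle4, a corepressor (6.55 to 11.3, log2 change 0.79, SE 0.14, adjusted p = 0.00552). Of 43 members in genes of inhibitory neurons and of 314 in genes for glutamate and GABA receptors, 0 were called. Among 768 members in synaptic adhesion genes 3 rose (0.391%: Ctnnd2, Ntm and Nrxn3) and 2 fell (0.26%: Adgrl2 and Opcml), and among 386 in ion channel genes 4 rose (1.04%, among them Kcnma1, Cacnb2 and Cacna1d) and 2 fell (0.518%: Dpp10 and Kcnq5). Those of Cacnb2 and Cacna1d, both calcium channel subunits, each held PU.1 and RUNX matches. The median log2 change lay between -0.04 and 0.00 in these 5 lists.

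Introns of other glial, vessel and stress genes held 0 to 2 calls a list, and shares of such short lists rest on 1 or 2 members. In genes of astrocytes (79 members), oligodendrocytes (28) and mural cells (24), 0 members were called, and in those of oligodendrocyte precursors 1 of 148 rose (0.676%, beside 1.44% of all regions tested), in Ntm. Endothelial genes had a median log2 change of -0.12 over 36 members, of which 1 rose (2.78%), in intron 1 of Cdh5, the cadherin of vessel junctions (6.03 to 10.6, adjusted p = 0.00947). The highest endothelial member, in intron 2 of Adgrl4, stood at 17.8 in sham and 15.1 in BCAS (adjusted p = 0.171). Interferon-stimulated genes had 9 members, with 11.1% called in each direction (beside 1.44% and 0.577%), of which Trim30a rose (5.77 to 10.9, adjusted p = 0.00258) and Xaf1 fell (7.56 to 4.98, adjusted p = 0.0428). In genes of hypoxia and oxidative stress 2 of 39 rose (5.13%), in Pfkfb3, a regulator of glycolysis (8.23 to 12.2), and Arnt2, a partner of hypoxia-inducible factors (10.5 to 15.1). Of the 7 members in activity-regulated genes and the 3 in housekeeping genes, 0 were called.

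The highest members of the remaining lists did not pass the test. They lay in Ldb2 (excitatory neurons, 14.6 in sham and 14.1 in BCAS), Nxph1 (inhibitory neurons, 17.6 and 16.6), Gpc5 (astrocytes, 14.8 and 12.3), Zfp536 (oligodendrocytes, 11.8 and 11.7), Pcdh15 (their precursors, 15.96 and 14.8) and Ebf1 (mural cells, 13.8 and 12.3). Those of Cntn4 (synaptic adhesion, 17.0 and 16.6), Grm8 (a glutamate receptor, 17.0 and 17.3) and Kcnd2 (a potassium channel, 15.2 in both) also did not pass. The same held for those of Ifih1 (interferon-stimulated, 11.6 and 11.2), Pcsk1 (activity-regulated, 8.93 and 9.09), Egln3 (hypoxia, 14.8 and 14.9), Rab7 (housekeeping, 9.88 and 11.2) and the region shared by Cep295nl and Timp2 (disease-associated microglia, 11.6 and 10.9).

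Calls were scattered over genes. The 418 members that rose lay in 392 host genes of any type and the 155 that fell in 151, and 10 protein-coding genes held calls in both directions, among them Chd7, Cit, Itpr2 and Rin2. Over all regions tested, 1.44% were called higher and 0.577% lower. Chosen after the values were seen, Dock4, another activator of Rac, held the most members that rose, 5 of 24, with 0 lower. Its 5 members lay in introns 1, 4 and 8, and the one in intron 4 (chr12:40626481-40626990) stood at 6.58, 6.00, 4.96 and 10.1 in the sham libraries 1 to 4 and at 14.3, 12.5, 13.04 and 12.99 in the BCAS libraries 1 to 4 (log2 change 0.98, SE 0.16, adjusted p = 0.0035). The groups did not overlap in 4 of the 5, beside 403 of all 418 members that rose. Zfhx3 came next with 3 of 19, the largest in intron 4 as given above and the others in intron 7 (log2 changes 0.96 and 1.03).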

How the data were processed

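Nuclei of mouse cortex were profiled by ATAC-seq in 4 sham and 4 BCAS libraries. The submitters' processing notes name Trim Galore, FastQC, Bowtie2 2.3.4.3, SAMtools 1.9, MACS2 and DiffBind and the build mm10. The authors called peaks per library, with options, including any shift for Tn5, not given in the sources used here. Each deposited peak has a fold enrichment over background at the summit (a ratio), a -log10 p and a -log10 q (at least 1.30858 here, from the deposited files), and an integer display score that was not used for any result.

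Members and lists were chosen with earlier results of these data known. The 1028949 peaks on chromosomes 1 to 19, X and Y were merged and classified with GENCODE vM21 (basic), and 861 peaks on other sequences were left out. Where a library had several peaks in a region, its highest was used. The log2 fold enrichment of the 71712 regions called in all libraries was quantile normalised, which removes differences in overall height between libraries, and compared with limma 3.58.1 (R 4.3.3; variance trend, group only, two-sided, Benjamini-Hochberg over all these regions). The script was tested on simulated data. Exact permutation tests planned for medians over members are not quoted, since the members were chosen as a set.

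Named regions are the 10 members of greatest mean height, the 10 largest increases and 10 largest decreases among called members with groups that do not overlap, and the highest member of each of 16 gene lists. The 10 protein-coding genes with most members are also named. Called members of the gene lists, and genes with calls in both directions, were named after their values were seen, and a few of them are not reported here. A member counted for a list if any gene with an intron at its midpoint was in it. Motif matches on either strand were counted up to 100 bp from the median summit. Library depth in reads was not analysed here, so Wilson intervals (95%) cover counting of regions only. The read GC class came from the study's quality table, matched to libraries by peak count. The labels number replicates in both groups, but same-numbered libraries did not deviate together (r between -0.04 and 0.07), so no pairing was used. Alternatives covered peak thresholds, list lengths, overlap, normalization, base composition, the read GC class and single libraries. Python 3.11.15 was used for the remaining steps.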

Additional observations from a re-analysis of the deposited data

Results flagged for a closer look

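Within groups of 4 libraries, 100 sets of values were examined, and 8 held a library whose gap to the nearest other exceeded Dixon's critical share of the group's range, where chance gives about 1 in 20. Of these, 3 were medians over members. BCAS 1 had the greatest median peak width in members, 449 bp against 390 to 399 bp in the other BCAS libraries, and the smallest promoter to member gap of its group, 21.5 percentile points. Sham 1 had the smallest gap between members and distal regions in sham, at -7.31 points. The other 5 were single members. The Chl1 member stood at 29.2 in sham 2 and 26.8 in the other sham libraries, whose equal values are those that quantile normalization gives to the same rank. The 4930597G03Rik member stood at 19.7 in BCAS 4 against 20.9 to 21.0 in the other BCAS libraries. BCAS 3 stood apart in 3 members, at 17.2 in Cops4 (14.9 to 15.1 in the others), 3.24 in Gm2824 (5.46 to 5.93) and 19.2 in Grm8 (16.5 to 16.9).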

How the results depend on the processing

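The number of members, 27613, stayed between 19588 and 30064 in every alternative run: 22769 with stricter peaks, 23457 with lists of equal length, 19588 where peaks had to cover 50% of the region, 30064 with a TSS distance of 1 kb, 25248 with the comprehensive annotation (chosen after seeing the data), and 27652 to 29751 without a single library. Members higher in BCAS (418) numbered 870 with -log10 p as height, 104 with read GC class in the model and 211 under 50% cover, and 255 to 509 without a single library. Members lower in BCAS (155) numbered 470, 9 and 71 under the same settings, 92 with loess on GC content, 61 with the replicate block and loess together, 95 without a variance trend, and 37 to 192 without a single library. Called in every fit that left out a library were 202 of the 418 (48.3%) and 16 of the 155 (10.3%). With the replicate block alone the counts were 446 and 172, and each named member kept its side of the threshold. Among the 20 named increases and decreases, Itgb2 and 9 of the decreases lost their call with read GC class in the model (adjusted p of 0.0592 to 0.2, limma), and Cit, Fhod3, Gm2824 and Samd12 lost it in other fits too. The difference in height percentile turned from -0.71 to 0.407 points when ranked among all peaks of a library, and lay between -0.89 and -0.49 without a single library. The difference in peak width (-1.75 bp) had no stable sign, with 3.08 bp without sham 2, 8.75 bp without sham 3, 1.17 bp without BCAS 2, 4.17 bp without BCAS 3 and 3.17 bp without BCAS 4, and a range of -15.5 to 8.75 bp. The cause of these shifts was not tested. With 50 bp on each side of the summit, AP-1 matches were in 12.4% of members and PU.1 matches in 1.16%.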

Other observations

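Several motifs that the report does not describe also had median height percentiles that did not overlap between the groups. The 522 members with an NF-kB match stood at 38.3 ± 0.781 in sham and 41.6 ± 0.860 in BCAS (mean ± SD, n = 4 each), the 46 with an ETS match (CCGGAAGT) at 41.3 ± 4.31 and 55.6 ± 1.72, and the 934 with a TEAD match (ACATTCC) at 40.1 ± 0.889 and 38.1 ± 0.451. Matches to NR4A (AAAGGTCA) were in 67 members, and their percentiles overlapped between the groups. Of these 67, 7 rose (10.4%, beside 1.51% of all members) and 0 fell (beside 0.561%). Among the 46 with an ETS match, 8 rose (17.4%) and 1 fell (2.17%). Among regions outside introns, PU.1 matches were in 15.6% of 257 promoter regions and 14.02% of 328 distal regions that rose, and AP-1 matches in 30.8% of 52 promoter regions and 41.1% of 202 distal regions that fell, beside 14.1% and 35.5% for members. No test was run on these shares.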
